A study of Homo sapiens with 33 samples.

Results

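The 53 genes described here encode parts of the Wnt pathway: ligands, the enzymes that make ligands, receptors, R-spondin receptors and other regulators of receptor turnover, inhibitors and feedback genes, dishevelled proteins and their regulators, the β-catenin destruction complex, and nuclear partners of β-catenin. They were chosen by gene symbol, and each of the 53 symbols matched 1 of the 62446 gene rows. They were measured by RNA sequencing in 11 groups of 3 libraries each, 33 in all, from cell lines of acute lymphoblastic leukaemia (ALL). Nalm6, a B-cell precursor line, had an untreated group, a group given CHIR-99021 at 0.5 µM and a group given prednisolone at 5 µM, each for 24 h. A second untreated Nalm6 group accompanied Nalm6 cells given 100 nM dexamethasone for 24 h, and these groups are called the dexamethasone set. The titles do not tie the Nalm6 prednisolone libraries to either untreated group, and in the sample list they stand next to the second. They were compared with the first untreated group only, so a difference between sets may enter those values. A TLE1 knockout derivative of Nalm6, edited with CRISPR/Cas9, had 1 untreated group, a group with prednisolone at 5 µM and a group with dexamethasone at 100 nM, for 24 h. The labels do not say whether the knockout is 1 clone. CEM, a T-cell ALL line, had an untreated group and groups with CHIR-99021 at 2 µM and prednisolone at 10 µM for 24 h. Nalm6 and knockout cells were kept in medium with charcoal-stripped serum, per the labels. The series text speaks of 3 independent experiments for CHIR-99021 in Nalm6 and for prednisolone in the knockout. For the other groups nothing says that replicates came from separate cultures, so their p-values measure the spread between these libraries, which may be technical.

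Wnt proteins need the acyltransferase PORCN and the carrier WLS to leave the cell that makes them. At the receiving cell they bind a Frizzled (FZD) receptor together with LRP5 or LRP6, and dishevelled (DVL) proteins then hold the destruction complex in check. That complex, built on AXIN and APC, uses the kinases CK1 and GSK3 to mark β-catenin for degradation. When it is inactive, β-catenin reaches the nucleus and, with TCF/LEF proteins and the co-factors BCL9 and PYGO, switches on target genes, several of which (AXIN2, NKD1, RNF43, ZNRF3) restrain the pathway again. CHIR-99021 inhibits the GSK3 kinases and so acts as a Wnt agonist below the receptors. Prednisolone and dexamethasone are glucocorticoids used to treat ALL, and their receptor is itself a transcription factor.

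Libraries held 25292579 to 61930057 gene counts. Levels are given as counts in every 1000000 gene counts (CPM), on which scale 3 counts correspond to 0.0484 to 0.119. A member is called expressed in a group at 1 CPM or more in each of its 3 libraries, and not detected at 3 counts or fewer in each. All 8 B-cell precursor markers examined were expressed in every Nalm6 and knockout group and all 10 T-cell markers in every CEM group. CEM groups also expressed 4 of the 8 B-cell markers (CD79A, CD79B, VPREB1 and IGLL1), at a summed 59.1 to 96.4 CPM against 1914 to 2616 CPM in Nalm6 and the knockout. The Nalm6 and knockout groups expressed the T-cell markers BCL11B and LCK, and Nalm6 under either steroid also CD247. Of the myeloid and stromal markers examined, CD33 and PDGFRB were expressed in every Nalm6 and knockout group. MPO, LYZ and COL1A1 were expressed in some of these groups. TSC22D3, a direct glucocorticoid receptor target, rose by 3.99 to 5.96 on the log2 scale in each of the 5 glucocorticoid comparisons. TLE1 RNA was still present in the knockout (24.5 ± 0.783 CPM (SD, n = 3) untreated), so transcript level does not check that label. Replicate 1 of the untreated dexamethasone set held traces of T-cell transcripts: 7 of 7 T-cell genes had 2 to 10 counts there, and TCF7 had 27. In bulk RNA, fewer cells of a kind and less RNA per cell cannot be told apart.

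Untreated Nalm6 cells expressed most genes of the receiving side of the pathway and few ligands. Of the 7 ligand genes among the members, 0 were expressed and 5 were not detected, while WNT3 (0.937, 1.16 and 0.871 CPM) lay at the limit and passed it in the untreated dexamethasone set (1.10, 1.05 and 1.04 CPM). PORCN was expressed (5.22 CPM) but WLS was not detected in any of the 11 groups. By contrast 7 of 10 receptor genes, 4 of 5 genes of the dishevelled group and all 12 destruction complex genes passed 1 CPM. So did 4 of the 8 genes grouped as nuclear: BCL9, BCL9L, PYGO2 and the β-catenin inhibitor CTNNBIP1. That group also holds TNFRSF19, a target gene that encodes a membrane receptor. Across the 11 groups 25 of the 53 members were expressed everywhere and 6 were not detected anywhere, namely WNT5A, WNT6, WNT16, WLS, FZD8 and SP5. The number of expressed members was 33 or 34 in each of the 8 Nalm6 and knockout groups and 27 to 29 in the 3 CEM groups. Outside the member list, the ligand WNT9A was expressed in untreated Nalm6 (2.79, 3.28 and 2.94 CPM) and had 0 counts in untreated CEM. Transcripts of the R-spondins RSPO1, RSPO2 and RSPO3 were not detected in any group.

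**Figure D1:**
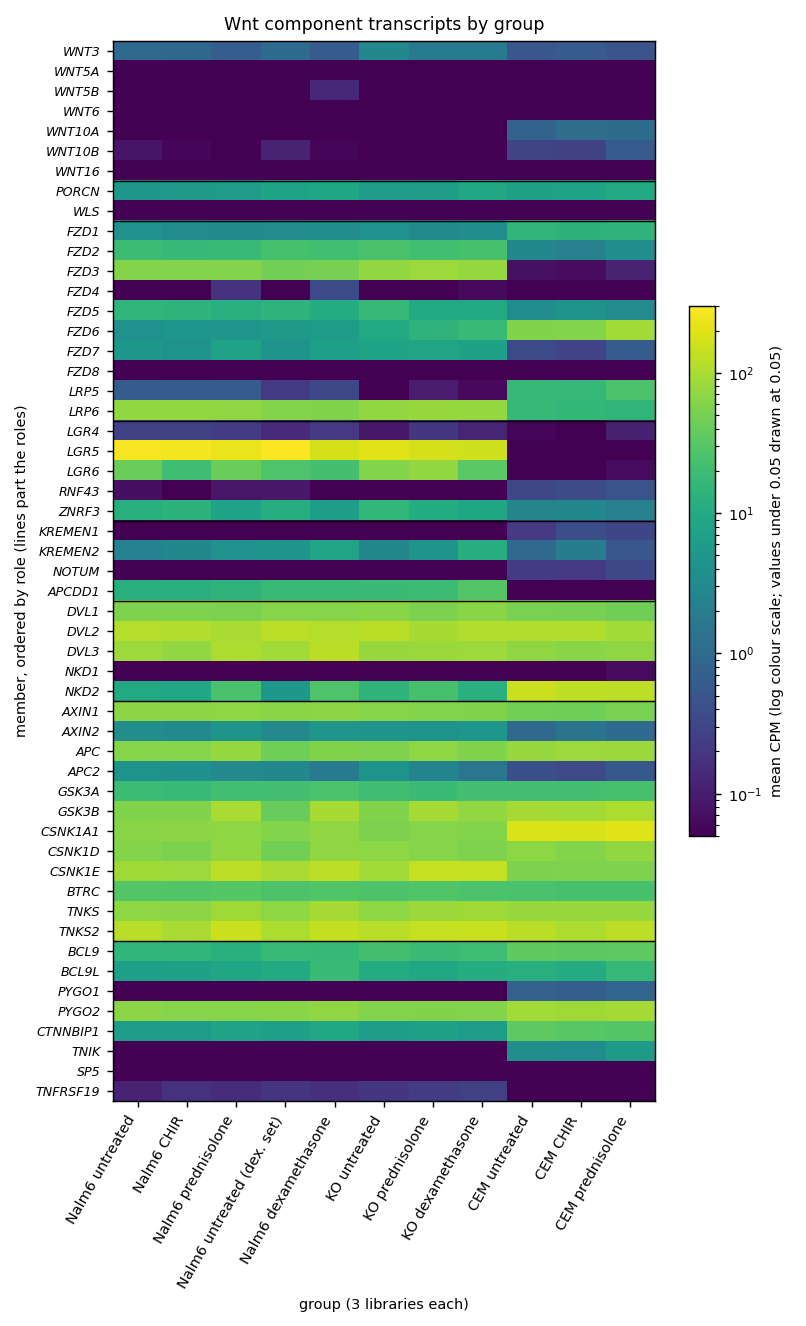
Mean CPM of the 53 members (rows, grouped by role) in the 11 groups (columns, 3 libraries each), on a logarithmic colour scale. The destruction complex genes are filled in every column, the ligand rows are nearly empty, and LGR5, LGR6, FZD3 and APCDD1 are filled in the 8 Nalm6 and knockout columns but at most at trace level in the 3 CEM columns.

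Levels were compared between genes only per kilobase of exon, scaled to a sum of 1000000 (TPM). On that scale LGR5, a receptor for R-spondins, was the most abundant member in untreated Nalm6 at 150 ± 3.55 TPM (SD, n = 3). DVL2 (63.6 ± 2.28), the tankyrase TNKS2 (58.2 ± 1.60) and PYGO2 (54.3 ± 1.72) followed. Among the receptors FZD2 (27.8 ± 1.80 TPM) and LGR6 (27.6 ± 1.28 TPM) did not differ beyond their spread. LRP6 stood at 21.3 TPM, FZD3 at 12.9, FZD5 at 6.88, FZD7 at 3.97, FZD6 at 3.04 and FZD1 at 1.77, and LRP5 reached only 0.304 TPM. The untreated knockout kept LGR5 first at 105 ± 6.01 TPM and DVL2 second at 62.1 TPM. In CEM the order was led by NKD2, an inhibitor of dishevelled, at 160 ± 6.10 TPM, followed by PYGO2 at 77 TPM and the CK1 kinase gene CSNK1A1 at 72.8 TPM. Its leading receptor was FZD6 at 43.5 ± 2.02 TPM, ahead of LRP5 at 8.41, FZD1 at 6.72 and LRP6 at 5.12 TPM. On the same strand, 37.4% of the exon bases of CSNK1A1 are shared with AC021078.1, and 21.1% of those of CSNK1E with TPTEP2-CSNK1E. The levels of both may be too low for that reason, which was not tested.

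CEM and Nalm6 shared the 25 members expressed in every group, at different levels. Another 10 passed the limit of 1 CPM in the untreated groups of only 1 side. LRP5 and TNIK were expressed in untreated CEM but not in untreated Nalm6 or the knockout. FZD3, FZD7, LGR5, LGR6, KREMEN2, APCDD1, AXIN2 and APC2 were expressed in both untreated Nalm6 sets and the knockout but not in untreated CEM. Of these, KREMEN2 and AXIN2 fell just short of the limit in untreated CEM and passed it in CEM under CHIR-99021. The contrast below sets the 3 untreated CEM libraries against the 6 untreated libraries of both Nalm6 sets. LGR5 stood at 265, 267 and 255 CPM in untreated Nalm6 and at 285, 282 and 274 CPM in the untreated dexamethasone set, whereas the 3 untreated CEM libraries together held 1 LGR5 count. The ratio was 34072, with a 95% counting interval of 6115 to 1345770. LGR6 held 4 counts in untreated CEM against a mean of 34.7 CPM in Nalm6, a ratio of 1089 (425 to 3998). APCDD1, a membrane-bound Wnt inhibitor, had 0 counts in CEM and was at least 208-fold lower than in Nalm6 (floor of 3 counts per library). FZD3 stood at 59.4, 58.0 and 60.5 CPM in untreated Nalm6 and at 2, 4 and 3 counts in CEM, a log2 difference of -9.48 ± 0.13 (SE; edgeR quasi-likelihood test, adjusted p = 1.01e-18). None of these 4 genes overlapped between the lines, which was a condition for naming them.

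The co-receptors differed in opposite directions. LRP5 stood at 16.4, 17.4 and 16.5 CPM in untreated CEM and at 0.484, 0.571 and 0.819 CPM in untreated Nalm6. LRP6 was higher in Nalm6 at 73.6 ± 1.20 CPM (SD, n = 3), against 17.1 ± 0.230 in CEM. The log2 differences of CEM against both Nalm6 sets were 5.48 ± 0.11 for LRP5 (SE; edgeR, adjusted p = 1.12e-16) and -1.93 for LRP6. Against each set alone LRP5 differed by 4.80 and, in the dexamethasone set, by 6.13. FZD6 was 3.63 ± 0.05 higher on the log2 scale in CEM (57.3 ± 2.83 against 4.12 CPM), whereas FZD2 and FZD7 were lower there, by -2.93 ± 0.08 and -3.70 ± 0.14. NKD2 was at 148, 156 and 146 CPM in CEM and at 8.33, 10.3 and 10.9 CPM in Nalm6 (4.73, 4.58 and 6.02 CPM in the dexamethasone set). The log2 difference was 4.43 ± 0.07 against both sets (SE; edgeR, adjusted p = 2.80e-18), and 3.98 and 4.84 against each alone. TNIK, a kinase that acts with TCF proteins, had 0 counts in both untreated Nalm6 groups and 3.66, 3.53 and 3.84 CPM in CEM, at least 54.3-fold higher. PYGO1, a nuclear co-factor, was at least 11.3-fold higher in CEM, and WNT10A was higher by a ratio of 45.6 (19.5 to 140). AXIN2, the general readout of β-catenin activity, was lower in CEM (1.08, 0.834 and 1.06 CPM) than in Nalm6 (3.52, 3.77 and 3.81 CPM), by -1.72 ± 0.13 (SE; edgeR, adjusted p = 4.56e-09). GSK3B was higher in CEM by 0.99 ± 0.04. GSK3A was higher by 0.14 against both sets, but stood at -0.01 against the dexamethasone set alone.

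All 40 members tested in the contrast of the lines were called (edgeR, adjusted p under 0.05), 21 higher and 19 lower in CEM. Of all 19373 genes tested, 80.3% were called (41.4% higher and 38.9% lower in CEM), so this count says little about the members. All 12 destruction complex genes and all 6 nuclear genes tested were among them, the nuclear genes all higher in CEM. Outside the members, the TCF/LEF gene TCF7 was at 513 ± 45.5 CPM in CEM and at no more than 0.34 CPM as a group mean in any Nalm6 or knockout group, while LEF1 stood at 592 ± 16.5 and 524 ± 13.6 CPM.

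Few members were called under CHIR-99021 in either line. In each line CHIR-99021 was set against the same untreated libraries as prednisolone, so those comparisons share their controls, as do both steroid comparisons in the knockout. In Nalm6 1 of 36 members tested was called, against 7.88% of all 18082 genes (3.16% higher, 4.72% lower), and the members' median log2 change was -0.07. That member was LGR6, an R-spondin receptor. LGR6 stood at 40.1, 42.2 and 44.1 CPM untreated and at 19.8, 22.4 and 20.5 CPM under 0.5 µM CHIR-99021. The 3 treated libraries were all below the 3 controls, which was a condition for naming LGR6. They were also below the 24.1 to 29.3 CPM of the untreated dexamethasone set. LGR6 fell by 1.01 ± 0.06 on the log2 scale (SE; edgeR, adjusted p = 5.25e-05). Its close relative LGR5 stood at 259, 258 and 259 CPM under CHIR-99021 and was not called. Treated replicate 3 of Nalm6 stood apart from its group. Measured against sampling noise, chi-square per degree of freedom was 42.1 and 43.7 for its pairs, and 5.77 between replicates 1 and 2. FKBP5, examined as a check gene, was at 59.9 CPM in replicate 3 and at 113 and 117 CPM in the others. Counts of calls without this library are given in the last section.

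Of the 4 target and feedback genes that could be tested in Nalm6 (AXIN2, ZNRF3, LGR5 and APCDD1), 0 were called under CHIR-99021. AXIN2 was at 3.52, 3.77 and 3.81 CPM untreated and at 3.17, 3.26 and 3.25 CPM under CHIR-99021, a log2 change of -0.19 ± 0.09 (edgeR, adjusted p = 0.221). ZNRF3, which removes Frizzled receptors from the cell surface, was at 11.9 CPM in each control and at 14.6, 14 and 12.8 CPM under CHIR-99021, a log2 change of 0.21 ± 0.06 (edgeR, adjusted p = 0.0641). All 3 treated ZNRF3 libraries lay above the controls, but the call was made only when treated replicate 3 was left out. NKD1, SP5, NOTUM, RNF43 and TNFRSF19, the other genes of that list, were too low to be tested there. On the same strand, 57.6% of the exon bases of RNF43 are shared with AC004687.2, and 25.2% of those of AXIN2 with AC004805.1. Their counts may be too low for that reason, which was not tested. GSK3A and GSK3B, which encode the kinases that CHIR-99021 inhibits, had log2 changes of -0.13 and 0.02 (adjusted p = 0.24 and 0.898 in edgeR).

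In CEM, at the higher dose of 2 µM, 4 of 37 members tested were called, 2 in each direction, against 10.8% of all genes (5.41% higher, 5.43% lower). KREMEN2, a receptor for the Wnt antagonist DKK, was at 1.06, 0.877 and 1.03 CPM untreated and at 1.90, 1.83 and 2.34 CPM under CHIR-99021. The groups did not overlap, which was a condition for naming KREMEN2. KREMEN2 rose by 1.04 ± 0.16 on the log2 scale (SE; edgeR, adjusted p = 0.00166). With reads counted without strand the KREMEN2 change was 0.04 (edgeR, adjusted p = 0.902), in a range of 8.50e-08 to 0.902 over the alternatives other than leaving out a library. On the opposite strand, 13.8% of its exon bases are shared with PKMYT1. FZD5 rose from 3.32, 3.25 and 3.69 to 4.24, 4.59 and 4.28 CPM, by 0.38 ± 0.10 (edgeR, adjusted p = 0.025), and was not called without untreated replicate 1 or 2 or treated replicate 2. NKD2 was lower by -0.20 ± 0.05 and TNKS2 by -0.24 ± 0.06 (edgeR, adjusted p = 0.0279 and 0.0274), and in 5 and 3 of 6 fits that left out 1 library these calls were lost. AXIN2 was at 1.54, 1.58 and 1.17 CPM against 1.08, 0.834 and 1.06 CPM, a log2 change of 0.56 ± 0.18 (edgeR, adjusted p = 0.0644). The AXIN2 groups did not overlap, but the difference did not pass the threshold.

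AXIN2 thus had a negative estimate in Nalm6 and a positive one in CEM, and the difference between the lines was 0.76 ± 0.19 (edgeR, adjusted p = 0.0587), at doses that differ. FZD5 was the 1 of 43 members whose response to CHIR-99021 was called as different, with 0.49 ± 0.10 (edgeR, adjusted p = 0.026), against 1.17% of all genes (0.63% with the higher value in CEM, 0.545% with the lower). That call was lost in 6 of 12 fits with 1 library left out.

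Of the 55 other pathway genes, CHIR-99021 changed a larger share of those tested than of all genes. The Nalm6 calls numbered 5 of 25, each a decrease, beside 7.88% of all genes. The CEM calls numbered 6 of 27, all decreases except CSNK1G1, beside 10.8% of all genes. Whether these shares exceed those of all genes beyond counting error was not tested. Median log2 changes were -0.05 and -0.04. The GSK3-binding genes FRAT1 and FRAT2 were among the called genes in both lines. FRAT1 was at 6.54 ± 0.0798 CPM (SD, n = 3) untreated and 4.10 ± 0.401 under CHIR-99021 in Nalm6. In CEM FRAT1 was at 8.03 ± 0.437 and 4.85 ± 0.434 CPM. In log2 terms FRAT1 fell by 0.67 ± 0.09 in Nalm6 and by 0.72 ± 0.09 in CEM (edgeR, adjusted p = 0.00181 and 0.000409). FRAT2 fell by 0.41 and by 0.49. The co-repressor gene TLE2 fell by 0.52 in Nalm6. CTNNB1, the β-catenin gene, had log2 changes of -0.03 and -0.08, and LEF1 of 0.05 and 0.07, none of them called.

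Prednisolone in Nalm6 changed 22 of 36 members tested, 14 higher and 8 lower. Of all 18658 genes 54.8% were called (28.7% higher, 26.1% lower), near the members' 61.1%, and the members' median log2 change was 0.07 against 0.03 over all genes. Of the 14 members that rose, 7 were destruction complex genes, in which group 7 of 12 were higher and 1 lower. Of the 8 receptors tested 1 was higher and 2 were lower. Both inhibitors tested, KREMEN2 and APCDD1, were higher, and the 2 called genes among R-spondin receptors and turnover ligases, ZNRF3 and LGR5, were lower. Dexamethasone in Nalm6 changed 26 of 36 members, 17 higher and 9 lower, against 60.5% of all genes (30.2% higher, 30.2% lower), with a median of 0.12 against 0.02. There 9 of 12 destruction complex genes were higher and 1 was lower, and 3 of 3 tested turnover genes were lower.

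NKD2 had the largest tested increase among the members in Nalm6 with either steroid, apart from FZD4. NKD2 was at 8.33, 10.3 and 10.9 CPM untreated and at 24.7, 23.2 and 26.5 CPM under prednisolone. In the dexamethasone set it was at 4.73, 4.58 and 6.02 CPM untreated and at 27.9, 27.2 and 27.6 CPM under dexamethasone. Treated and untreated libraries did not overlap in either comparison, which was a condition for naming NKD2. NKD2 rose by 1.31 ± 0.08 under prednisolone (SE; edgeR, adjusted p = 5.97e-10) and by 2.40 ± 0.08 under dexamethasone (adjusted p = 8.35e-12). The treated levels were close to each other, while the untreated sets differed by -0.89 ± 0.12 (edgeR, adjusted p = 8.07e-05), the dexamethasone set being lower.

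GSK3B, the kinase subunit of the destruction complex, had the same form. Its 3 untreated libraries were at 56.4, 58.1 and 57.3 CPM and its prednisolone libraries at 99.7, 101 and 95.7 CPM. In the dexamethasone set they were at 38.3, 40.0 and 39.5 CPM untreated and at 95.8, 98.3 and 98.7 CPM treated. GSK3B rose by 0.76 ± 0.04 and by 1.28 ± 0.04 (SE; edgeR, adjusted p = 1.88e-11 and 4e-12). Its untreated sets differed by -0.48, a value named after it was seen. GSK3A, the other GSK3 kinase, had changes of 0.12 (edgeR, adjusted p = 0.0502) and 0.17 (adjusted p = 0.033), and the second was not called without untreated replicate 1 of the dexamethasone set (0.09).

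Other members of the destruction complex moved less. CSNK1E, a CK1 kinase gene, was at 86.5, 86.7 and 89.6 CPM untreated and at 118, 130 and 129 CPM under prednisolone, a rise of 0.50 ± 0.04 (edgeR, adjusted p = 2.17e-08). It rose by 0.32 under dexamethasone. APC rose by 0.28 ± 0.04 and 0.35, the tankyrases TNKS and TNKS2, which destabilise AXIN, by 0.30 and 0.29 under prednisolone and by 0.41 and 0.38 under dexamethasone, and CSNK1D by 0.26 and 0.58. APC2, the second APC gene, fell by 0.50 ± 0.11 and by 0.61 ± 0.15 (edgeR, adjusted p = 0.000753 and 0.00319). With strand ignored, the APC2 changes were -0.06 and -0.02 and neither was called, and 3.10% and 0.436% of its exon bases lie opposite the genes AC027307.2 and C19orf25. AXIN2 was at 4.34, 4.84 and 4.33 CPM under prednisolone, a change of 0.26 ± 0.10 (edgeR, adjusted p = 0.0356) that was lost with any 1 library left out. Under dexamethasone AXIN2 went from 2.55, 3.11 and 3.40 to 5.11, 4.35 and 4.72 CPM, without overlap, and rose by 0.63 ± 0.12 (edgeR, adjusted p = 0.000358). It rose by 0.49 without untreated replicate 1.

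Among receptors and their regulators the changes ran both ways. FZD5 was at 14.9, 16.2 and 15.2 CPM untreated and at 11.9, 11.3 and 11.4 CPM under prednisolone, and fell by 0.44 ± 0.06 (edgeR, adjusted p = 5.86e-06). It fell by 0.39 under dexamethasone. FZD7 rose by 0.54 ± 0.08 and 0.63 ± 0.09, and FZD1 fell by 0.39 ± 0.12 under prednisolone. FZD4 had 0 counts in each untreated Nalm6 library, 9, 7 and 6 counts under prednisolone and 14, 12 and 19 under dexamethasone. Against a floor of 3 counts per library, the prednisolone level of FZD4 was at least 3.34-fold higher. Its dexamethasone level was at least 4.37-fold higher. Only the dexamethasone value entered the test, and 18.9% of the exon bases of FZD4 lie opposite PRSS23. ZNRF3 was at 8.25, 7.42 and 6.57 CPM under prednisolone against 11.9 in each control, and fell by 0.73 ± 0.08 (edgeR, adjusted p = 3.30e-07). It fell by 0.84 ± 0.08 under dexamethasone, from 10.3, 11.7 and 11.6 to 5.81, 6.47 and 6.84 CPM.

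LGR5 was lower under both steroids. It was at 222, 243 and 243 CPM under prednisolone and at 172, 168 and 168 CPM under dexamethasone. LGR5 fell by 0.18 ± 0.04 under prednisolone, a value named after it was seen, and by 0.76 ± 0.04 under dexamethasone (edgeR, adjusted p = 0.00117 and 5.14e-10). The drugs were given at different doses and compared with different untreated sets, so the difference was not tested. KREMEN2 was at 4.21, 4.33 and 3.62 CPM under prednisolone against 2.08, 2.65 and 2.44 CPM, and at 6.99, 8.27 and 8.52 CPM under dexamethasone against 4.38, 4.43 and 4.87 CPM. KREMEN2 rose by 0.73 ± 0.12 and 0.76 ± 0.10 (edgeR, adjusted p = 6.94e-05 and 1.13e-05). WNT3, the only ligand of the list that could be tested in Nalm6, was at 0.463, 0.738 and 0.688 CPM under dexamethasone against 1.10, 1.05 and 1.04 CPM, and fell by 0.80 ± 0.22 (edgeR, adjusted p = 0.0063). Under prednisolone its change was -0.53 (adjusted p = 0.0566 in edgeR). BCL9L, which tethers PYGO to β-catenin with BCL9, rose by 0.74 ± 0.09 under dexamethasone, and DVL3 by 0.41.

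**Figure D2:**
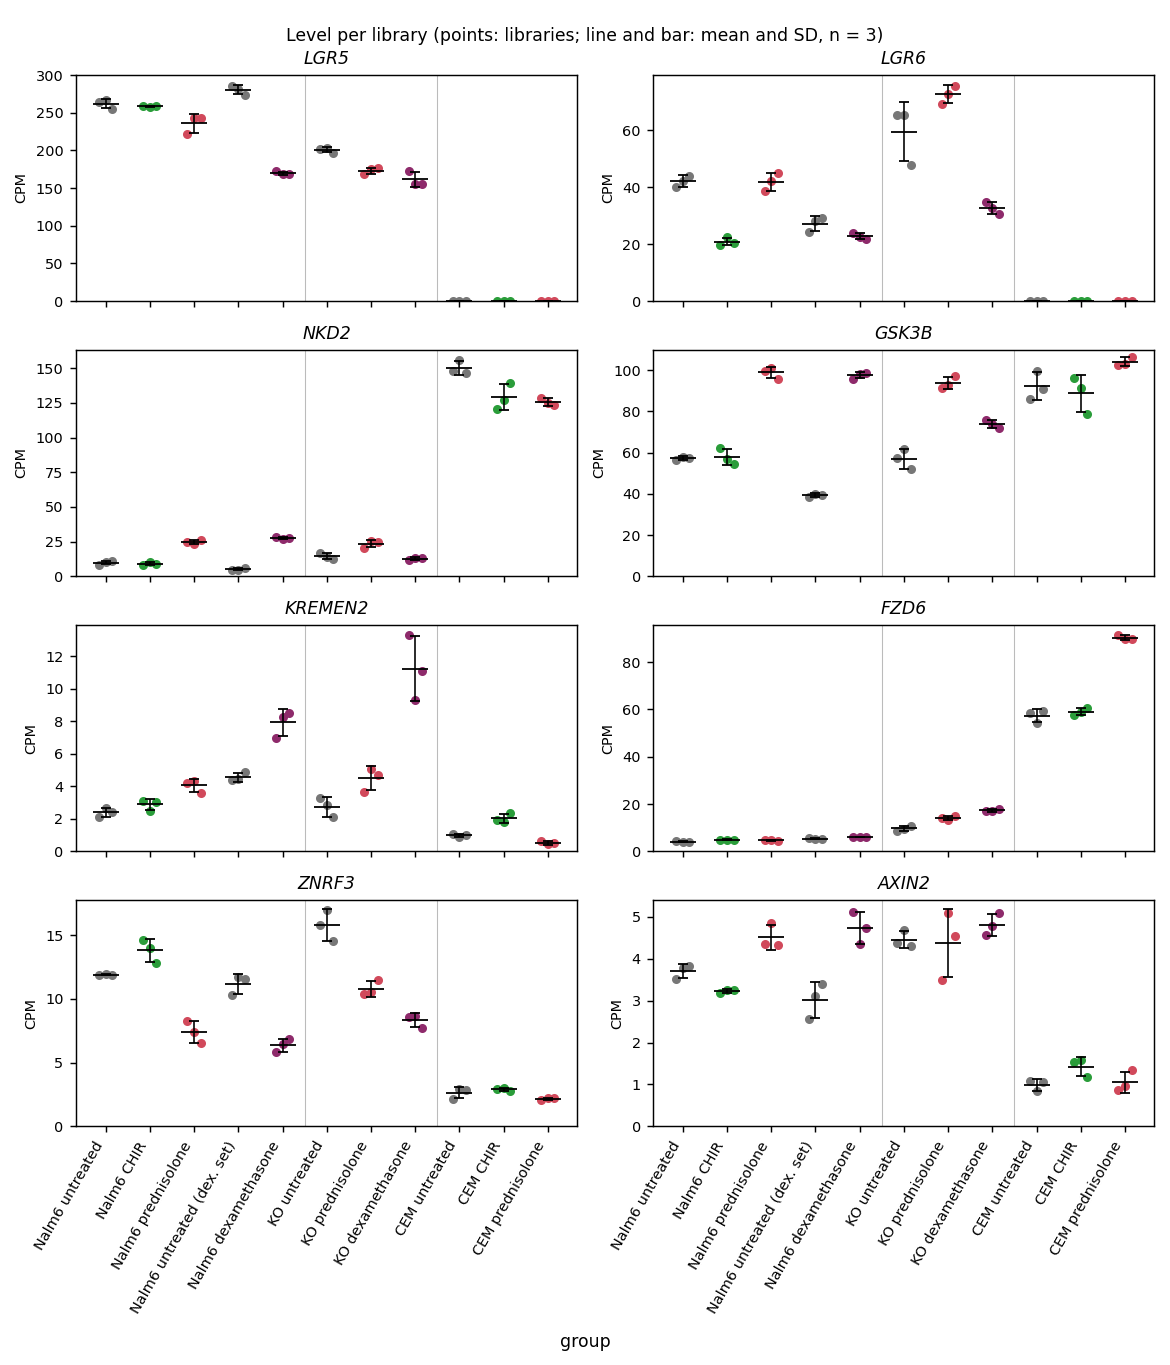
CPM of LGR5, LGR6, NKD2, GSK3B, KREMEN2, FZD6, ZNRF3 and AXIN2 in each of the 33 libraries (points) by group, with mean and SD (n = 3), each panel on its own axis. NKD2 and GSK3B are higher in the steroid groups of Nalm6 than in their own controls, LGR6 is lower under CHIR-99021 in Nalm6, and FZD6 is highest in CEM under prednisolone.

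Prednisolone in the knockout changed 16 of 34 members tested, 8 in each direction, against 41.7% of all genes (19.8% higher, 21.9% lower). GSK3B was at 57.3, 61.7 and 52.1 CPM untreated and at 91.5, 92.7 and 97.2 CPM under prednisolone, and rose by 0.68 ± 0.07 (SE; edgeR, adjusted p = 2.54e-05). CSNK1E rose from 92.3, 87.0 and 88.9 to 137, 147 and 142 CPM, by 0.63 ± 0.06 (adjusted p = 1.40e-05 in edgeR). NKD2 was at 16.8, 14.2 and 12.6 CPM untreated and at 20.7, 25.5 and 24.6 CPM treated, and rose by 0.66 ± 0.11 (edgeR, adjusted p = 0.000887). All 3 genes had treated libraries above every control, and for CSNK1E and NKD2 absence of overlap was a condition for naming them. FZD6 rose by 0.49 ± 0.11 and KREMEN2 by 0.67 ± 0.18. FZD5 fell from 17.2, 18.4 and 15.7 to 9.35, 9.56 and 11.1 CPM, by 0.82 ± 0.10 (edgeR, adjusted p = 0.0001). WNT3 fell by 0.76 ± 0.16, APC2 by 0.77 ± 0.23, ZNRF3 by 0.59 ± 0.09 and LGR5 by 0.25 ± 0.06. AXIN2 had a change of -0.07 (edgeR, adjusted p = 0.714) and GSK3A of -0.16. With untreated knockout replicate 3 left out, 21 members were called, and the share of all genes in that fit is not given here.

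Across prednisolone and dexamethasone in Nalm6 and prednisolone in the knockout, 7 members were called higher in all 3 comparisons: KREMEN2, NKD2, APC, GSK3B, CSNK1E, TNKS and TNKS2. The 5 called lower in all 3 were FZD5, LGR5, ZNRF3, DVL2 and APC2. These are 20.6% and 14.7% of the 34 members tested in all 3, beside 15.4% and 17.7% of all 16125 genes tested in all 3. The names follow from the calls and were chosen after the values were seen. The promoter bases of GSK3B, NKD2, APC and CSNK1E, which rose in all 3 comparisons, are shown as examples of members that moved together. They are the 250 bases before the start site from RefSeq on GRCh38.p14, 5′ to 3′ on the gene's strand, with capitals where the letters AGAACA, the hexamer recognised by the glucocorticoid receptor, occur on either strand. The windows are chr3:120094448-120094697 (GSK3B, minus strand), chr5:1008552-1008801 (NKD2, plus strand), chr5:112707248-112707497 (APC, plus strand) and chr22:38318085-38318334 (CSNK1E, minus strand).
GSK3B: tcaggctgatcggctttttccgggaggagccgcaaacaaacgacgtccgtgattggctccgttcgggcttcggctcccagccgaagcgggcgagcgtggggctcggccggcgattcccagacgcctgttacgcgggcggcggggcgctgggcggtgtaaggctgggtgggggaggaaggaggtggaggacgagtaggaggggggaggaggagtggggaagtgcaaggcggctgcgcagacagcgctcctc
NKD2: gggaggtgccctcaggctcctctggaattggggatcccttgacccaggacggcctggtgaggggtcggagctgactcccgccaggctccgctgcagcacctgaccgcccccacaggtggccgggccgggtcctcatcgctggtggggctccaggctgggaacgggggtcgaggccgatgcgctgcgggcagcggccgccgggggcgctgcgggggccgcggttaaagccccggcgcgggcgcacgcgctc
APC: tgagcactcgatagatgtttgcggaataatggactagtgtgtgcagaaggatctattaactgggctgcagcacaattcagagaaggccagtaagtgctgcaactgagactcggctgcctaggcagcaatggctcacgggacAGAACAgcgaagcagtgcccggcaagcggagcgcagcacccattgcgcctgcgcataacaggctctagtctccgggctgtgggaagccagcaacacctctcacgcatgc
CSNK1E: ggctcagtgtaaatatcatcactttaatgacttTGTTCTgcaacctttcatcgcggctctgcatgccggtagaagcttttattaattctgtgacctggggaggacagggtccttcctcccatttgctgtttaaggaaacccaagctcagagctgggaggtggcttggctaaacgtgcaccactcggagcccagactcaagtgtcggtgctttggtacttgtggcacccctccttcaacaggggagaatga

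RefSeq promoters of 300 bases (250 before and 50 after the start) were matched for 36 of the 53 members, 50 promoters in all. AGAACA occurred on either strand in 6 of these 50 (12%; APC, CSNK1A1, TNFRSF19, RNF43, CSNK1E and PORCN) and in 14.8% of all 35116 promoters, so the share among members was near that of all promoters. In APC it lies 109 bases and in CSNK1E 217 bases before the start, in CSNK1E as TGTTCT on the strand shown, and each of these genes has another listed promoter without it. GSK3B and NKD2 hold no such letters in this window. Nor does TNKS2, which also rose in all 3 comparisons and whose promoter is not shown. For APC and CSNK1E the promoter shown is the one that holds the hexamer. Of the members, 0 had a pair of these hexamers facing each other 3 bases apart. CTTTGAT, 1 form of the sequence bound by TCF/LEF proteins, occurred in 1 of the 50 member promoters (SP5, 109 bases before the start) and in 2.62% of all promoters. Other forms were not searched for. A match is a description of letters and not a bound site.

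Between the knockout and its parent, the prednisolone response differed for 1 of 35 members, against 3.48% of all genes (1.1% with the higher value in the knockout, 2.38% with the lower). NKD2 rose less in the knockout, by -0.63 ± 0.16 (edgeR, adjusted p = 0.0356), and that call held in 4 of 12 fits with 1 library left out and was lost with the replicate block. The NKD2 levels under prednisolone were 24.8 ± 1.64 CPM in Nalm6 and 23.6 ± 2.55 in the knockout (SD, n = 3), and the untreated levels were 9.87 ± 1.36 and 14.6 ± 2.12. GSK3B differed in its response by -0.06 and AXIN2 by -0.31, neither called (adjusted p = 0.755 and 0.367 in edgeR).

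Dexamethasone in the knockout has no untreated group of its own set, and it was set against the untreated knockout. There 15 of 34 members were called, 9 higher and 6 lower, against 52.3% of all genes (26% higher, 26.3% lower). Subtracting the difference between the 2 untreated Nalm6 sets gave 19 called members, 12 of them shared. The share of all genes called after the subtraction is not given here. KREMEN2 was at 13.3, 9.33 and 11.1 CPM against 3.27, 2.84 and 2.09 CPM, and rose by 2.06 ± 0.17 (SE; edgeR, adjusted p = 3.87e-06), or by 1.06 after the subtraction. FZD6 rose by 0.84 ± 0.10 (0.40 after it), and CSNK1E by 0.67 ± 0.05 (0.42 after it). GSK3B was at 75.6, 73.9 and 71.7 CPM against 57.3, 61.7 and 52.1 CPM, and rose by 0.38 ± 0.06 (0.86 after it). ZNRF3 fell by 0.91 ± 0.09, FZD5 by 0.76 ± 0.08, WNT3 by 0.71 ± 0.14 and LGR5 by 0.30 ± 0.06, and APC2 by 1.44 ± 0.19. After the subtraction these 5 stood at -0.88, -0.70, -0.89, -0.46 and -0.89. LGR6 fell by 0.85 ± 0.11, but stood at -0.28 after the subtraction and was not called, and APCDD1 (0.66 ± 0.06) and PORCN (0.62 ± 0.10) were not called after it either. NKD2 had a change of -0.20 (edgeR, adjusted p = 0.155), and the subtraction turned it to 0.69, which was called.

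In CEM, 10 µM prednisolone changed 16 of 38 members, 10 higher and 6 lower, against 45.1% of all genes (22.3% higher, 22.8% lower), with a median of 0.05 against 0.02. Of the receptors, 4 of 7 tested were higher and 1 lower, while 2 of 12 destruction complex genes were called, both higher. FZD6 was at 58.7, 54.1 and 59.3 CPM untreated and at 91.4, 89.9 and 89.7 CPM under prednisolone, and rose by 0.63 ± 0.04 (SE; edgeR, adjusted p = 1.82e-10). LRP5 went from 16.4, 17.4 and 16.5 to 26.2, 26.1 and 24.8 CPM, and rose by 0.58 ± 0.05 (adjusted p = 5.04e-08 in edgeR). In both genes all treated libraries lay above the controls, and absence of overlap was a condition for naming them. LRP6, the other co-receptor, fell by 0.26. FZD7 rose by 0.82 ± 0.29 from 0.348 ± 0.0811 to 0.623 ± 0.165 CPM, a call kept in 2 of 6 fits with 1 library left out. FZD2 rose by 0.34.

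Of the 3 ligands tested in CEM, 1 was called, WNT10B. It was at 0.347, 0.307 and 0.236 CPM untreated and at 0.760, 0.452 and 0.627 CPM under prednisolone, and rose by 0.99 ± 0.30 (edgeR, adjusted p = 0.0111). PORCN, the ligand acyltransferase, rose by 0.38 ± 0.08, from 7.26 ± 0.577 to 9.72 ± 0.456 CPM (SD, n = 3). TNIK rose by 0.60 ± 0.10, from 3.66, 3.53 and 3.84 to 5.89, 6.03 and 5.04 CPM (edgeR, adjusted p = 9.36e-05). KREMEN2 was at 0.645, 0.427 and 0.513 CPM against 1.06, 0.877 and 1.03 CPM, and fell by 0.92 ± 0.23 (edgeR, adjusted p = 0.00296). Without strand its change was -0.09 and not called. NKD2 fell by 0.29 ± 0.03, from 148, 156 and 146 to 128, 125 and 123 CPM, DVL2 by 0.33 ± 0.04 and CTNNBIP1 by 0.28 ± 0.04. GSK3B rose by 0.14 ± 0.04 (edgeR, adjusted p = 0.0132), a call kept in 4 of 6 fits with 1 library left out. AXIN2 had a change of 0.05 ± 0.21 (edgeR, adjusted p = 0.877), and 0 of 4 target and feedback genes tested were called.

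The difference between CEM and Nalm6 in the response to prednisolone, at 10 and 5 µM, was called for 16 of 43 members, 6 with the higher value in CEM and 10 with the lower, against 26.9% of all genes (14.7% and 12.2%). NKD2 differed by -1.58 ± 0.09 (edgeR, adjusted p = 2.36e-12), KREMEN2 by -1.64 ± 0.25 (adjusted p = 1.57e-05), GSK3B by -0.61 ± 0.06 (adjusted p = 2.32e-08) and CTNNBIP1 by -0.52 ± 0.08. WNT10B (2.20 ± 0.74) and APC2 (0.89 ± 0.27) had the larger value in CEM. WNT10B rested on few counts in Nalm6, and its call was lost in 6 of 12 fits with 1 library left out, with DESeq2 and with strand ignored. With strand ignored, KREMEN2 differed by -0.78 and was called, and APC2 by 0.21 and was not. AXIN2 differed by -0.20 (adjusted p = 0.572 in edgeR). KREMEN2, NKD2 and CTNNBIP1 were called higher in Nalm6 and lower in CEM, while FZD7, GSK3B and BCL9L were called higher in both. Of all 15401 genes tested in both lines, 2.16% had the first pattern and 13.1% the second, beside 3 of 31 members for each. Over prednisolone and dexamethasone in Nalm6 and prednisolone in the knockout and in CEM, GSK3B was the 1 of 30 members called higher in all 4 and DVL2 the 1 called lower in all 4, beside 8.49% and 12.3% of all 14567 genes. DVL2 went from 114 ± 4.12 to 99.7 ± 2.53 CPM in Nalm6 under prednisolone and from 109 ± 0.648 to 89.0 ± 3.85 CPM in CEM.

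**Figure D3:**
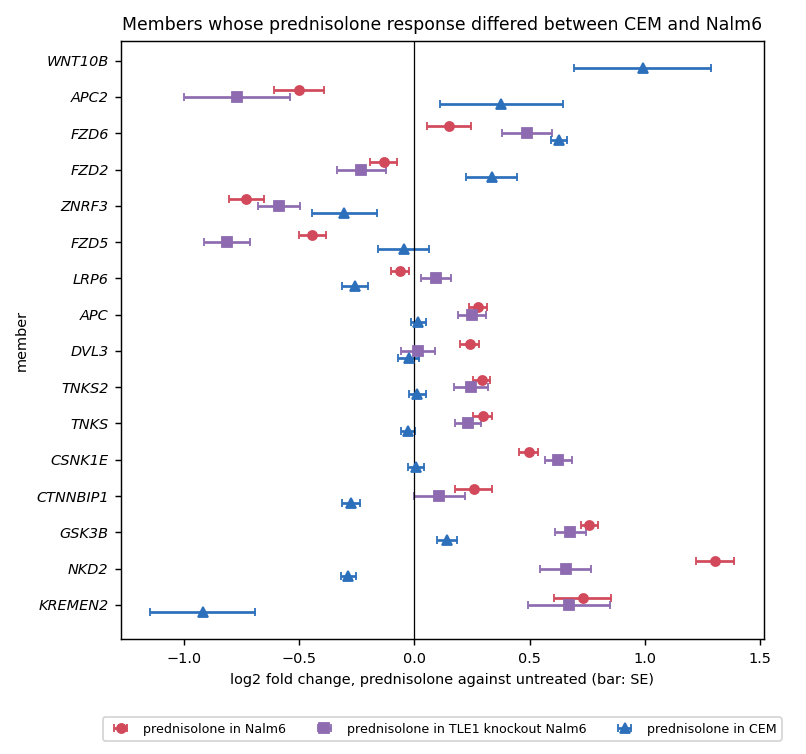
Log2 fold change under prednisolone against untreated (bars: SE) for the 16 members whose response differed between CEM and Nalm6, in Nalm6 (circles), the knockout (squares) and CEM (triangles). NKD2, KREMEN2 and CTNNBIP1 lie right of 0 in Nalm6 and left of 0 in CEM, GSK3B lies right of 0 in all 3, and WNT10B could be tested within CEM only.

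Among the 55 other pathway genes, LEF1 moved in opposite directions in the lines. LEF1, a TCF/LEF transcription factor, was at 524 ± 13.6 CPM (SD, n = 3) untreated and 257 ± 8.05 under prednisolone in Nalm6, at 401 ± 25.1 and 224 ± 12.4 in the knockout, and at 592 ± 16.5 and 940 ± 14.5 in CEM. It fell by 1.06 ± 0.04 in Nalm6 and by 0.88 ± 0.07 in the knockout, and rose by 0.64 ± 0.03 in CEM (SE; edgeR, adjusted p = 1.42e-13, 4.01e-06 and 4.30e-12). The difference of CEM from Nalm6 was 1.71 ± 0.05 (edgeR, adjusted p = 3.21e-18). Under dexamethasone in Nalm6 LEF1 went from 504 ± 27.2 to 210 ± 3.18 CPM, a change of -1.30 ± 0.04. ROR1, a receptor of β-catenin-independent Wnt signalling, rose by 3.76 ± 0.16 in CEM (0.630 ± 0.247 to 8.55 ± 0.645 CPM) and fell by 1.47 ± 0.28 in Nalm6, where it was under 1 CPM. RYK, another Wnt receptor, rose by 1.25 ± 0.07 in Nalm6. CTNNB1 rose in each, by 0.26 ± 0.04 in Nalm6, 0.23 in the knockout and 0.19 in CEM. In all 12 of 25 tested genes of that list were called under prednisolone in Nalm6, 7 higher, 7 of 24 in the knockout, 4 higher, and 15 of 26 in CEM, 12 higher. Those are 48%, 29.2% and 57.7%, beside 54.8%, 41.7% and 45.1% of all genes. TCF7 in the dexamethasone set had a change of 0.12 (edgeR, adjusted p = 0.884) with untreated replicate 1, whose 27 TCF7 counts stand apart, and of 2.24, which was called, without it.

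The untreated knockout differed from untreated Nalm6 in 15 of 35 members, 12 higher and 3 lower, against 27.1% of all genes (15.3% higher, 11.8% lower). WNT3, a canonical ligand, was at 3.20, 2.91 and 2.73 CPM in the knockout and at 0.937, 1.16 and 0.871 CPM in Nalm6, and was higher by 1.60 ± 0.15 (SE; edgeR, adjusted p = 6.28e-05). FZD6 was at 8.76, 9.63 and 10.9 CPM against 4.26, 4 and 4.11 CPM, and was higher by 1.27 ± 0.10 (adjusted p = 2.59e-05 in edgeR). Neither gene overlapped between the lines, which was a condition for naming them. FZD7 was higher by 0.62 ± 0.09, NKD2 by 0.59 ± 0.12, APCDD1 by 0.64 ± 0.06, ZNRF3 by 0.43 ± 0.07 and AXIN2 by 0.29 ± 0.09 (edgeR, adjusted p = 0.0464 for AXIN2, kept in 1 of 6 fits with 1 library left out). LGR6 stood at 65.5, 65.5 and 47.8 CPM in the knockout, higher by 0.52 ± 0.11, and by 0.65 without replicate 3. LGR5 was lower, at 201, 203 and 197 CPM, by -0.36 ± 0.04 (edgeR, adjusted p = 0.000394). LRP5 had 1 count in the 3 untreated knockout libraries together against 0.625 ± 0.173 CPM in Nalm6, a ratio of 57.9 (10.4 to 2286). LRP5 was low in the untreated dexamethasone set too, at 0.308, 0.185 and 0.173 CPM. GSK3B did not pass the threshold (0.02; adjusted p = 0.85 in edgeR).

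The 2 untreated Nalm6 sets themselves differed in 22 of 35 members, 12 higher and 10 lower in the dexamethasone set, against 50.2% of all genes (25.8% higher, 24.4% lower). KREMEN2 was higher there by 1.00 ± 0.11 (edgeR, adjusted p = 1.77e-05), APCDD1 and PORCN by 0.65 each and BCL9L by 0.62, and LRP5 was lower by -1.37 ± 0.33. AXIN2 differed by -0.25 (edgeR, adjusted p = 0.0922). LGR6 and APC, named after their values were seen, were lower there by -0.57 and -0.40. The size of these differences bears on comparisons made across sets, namely the knockout with dexamethasone and, since the labels do not tie the knockout or CEM libraries to either Nalm6 set, the contrasts between lines. The titles do not tie the Nalm6 prednisolone libraries to a set either. They were compared with the untreated set that is not named for dexamethasone, and a fit against the other set was not run. The size of the set differences therefore bears on the Nalm6 prednisolone values too.

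In all, 17 of the 53 members were called in none of the 7 treatment comparisons, and 9 of these were too low to be tested in any comparison. The matching share of all genes was not computed, so this count only describes the members. FZD3, a Frizzled receptor, and BTRC, the ubiquitin ligase subunit that recognises marked β-catenin, were among the 17 although both were expressed in Nalm6. FZD3 means lay between 49 and 85.3 CPM over the 8 Nalm6 and knockout groups. The members' shares of calls under glucocorticoids were 61.1% for prednisolone and 72.2% for dexamethasone in Nalm6, 47.1% and 44.1% in the knockout and 42.1% in CEM, beside the shares of all genes given above.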

How the data were processed

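For each of the 33 libraries a table of read counts, not normalized, was deposited, in the layout that STAR gives. The submitters' processing notes name Bowtie2, DESeq2 and the build hg19, with no versions. The labels' treatment protocol swaps CHIR-99021 and prednisolone between lines, and the sample titles were followed. Column 4, which held 12.3 to 15.3 times the counts of column 3, was used; the 4 rows of totals (2.84% to 11.2% unmapped and 18.4% to 32.7% outside genes) stayed out. CPM is a count per 1000000 gene counts. TPM uses union exon lengths from GENCODE v29 and serves only to compare genes.

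Comparisons were fitted over all genes on their own groups with edgeR 4.0.16 (R 4.3.3; filterByExpr, TMM, quasi-likelihood F test, p adjusted by Benjamini-Hochberg, with calls under 0.05), after a test on simulated data. Standard errors come from the F statistic. The contrast of CEM with Nalm6 uses both untreated Nalm6 sets. Counting intervals are exact, at 95%, and they and the floors cover counting error only. Every replicate pair differed beyond sampling noise, and none were merged.

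The members and lists were chosen with earlier results of these data known. Apart from AXIN2, GSK3A and GSK3B, members picked by the rule below had to show no overlap, so that is no added support. Fold changes are named for AXIN2, GSK3A, GSK3B and up to 14 members per comparison (6 per difference test or for the untreated sets) with the largest change among those called without overlap, plus CTNNB1, LEF1, TCF7 and up to 4 other pathway genes. Alternatives were DESeq2 1.42.0, RLE scaling, dropping the filter, a minimum of 10 counts per library, the replicate block, column 2 without strand, all 33 libraries in 1 fit, the set difference or a single set, and 99 fits with 1 library left out. Promoters came from RefSeq. Members without a promoter entry were AXIN2, BCL9L, BTRC, CSNK1D, FZD2, FZD3, FZD6, FZD7, KREMEN1, KREMEN2, LGR5, LRP6, NKD1, NOTUM, TNKS, WNT10B and ZNRF3.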

Additional observations from a re-analysis of the deposited data

Results flagged for a closer look

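These responses differed between lines by a test of the difference itself (edgeR, adjusted p under 0.05). For prednisolone in the knockout minus the parent, NKD2 differed by -0.63, a call lost with the replicate block and in 8 of 12 fits with 1 library left out. For prednisolone in CEM minus Nalm6, at 10 and 5 µM, WNT10B differed by 2.20 (not called with DESeq2, with strand ignored or in 6 of 12 fits with 1 library left out), APC2 by 0.89 (not called with strand ignored), KREMEN2 by -1.64, NKD2 by -1.58, GSK3B by -0.61 and CTNNBIP1 by -0.52. For CHIR-99021 in CEM minus Nalm6, at 2 and 0.5 µM, FZD5 differed by 0.49. Between CEM and Nalm6 the doses differ, so line and dose cannot be told apart.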

How the results depend on the processing

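Counts of called members depended on the setting mainly where few were called. The shares of all genes called in these alternatives are not given in this section, so the counts only describe the members. For CHIR-99021 in Nalm6 (1 call), DESeq2 gave 4, no filter 5, a minimum of 10 counts 2, all 33 libraries together 3, and leaving out 1 library 1 to 4, with 4 without treated replicate 3. For CHIR-99021 in CEM (4 calls), leaving out 1 library gave 1 to 6. For the prednisolone response of the knockout minus the parent (1 call), DESeq2 gave 2, no filter 2, all 33 libraries together 4, the replicate block 0, and leaving out 1 library 0 to 7, with 7 without untreated knockout replicate 3. For the CHIR-99021 response of CEM minus Nalm6 (1 call), DESeq2 gave 2, no filter 3, a minimum of 10 counts 2, all 33 together 2, and leaving out 1 library 0 to 2. In each case the cause was not tested.

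The counts of the other comparisons moved by less than 1.5 times. With 1 library left out they were 17 to 22 for prednisolone in Nalm6, 23 to 26 for dexamethasone in Nalm6, 13 to 21 and 14 to 19 for prednisolone and dexamethasone in the knockout, 14 to 18 for prednisolone in CEM, 12 to 19 for the knockout, 38 to 41 for CEM against Nalm6, 13 to 18 for the prednisolone difference of CEM and Nalm6, and 21 to 24 for the untreated sets. Replicate numbers did not pair the libraries: same-numbered deviations correlated by 0.02, 0.10 and 0.06 for prednisolone in Nalm6, where each library correlated best with its own number, and by -0.14, -0.12 and -0.12 in the knockout. The replicate block gave 24 calls for prednisolone in Nalm6 and 15 in the knockout.

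With 1 library left out, these values, none of them called in the reported fit, changed sign. Under CHIR-99021 GSK3B ran from -0.036 to 0.061 in Nalm6 and from -0.10 to 0.038 in CEM (also 0.03), and GSK3A from -0.035 to 0.070 in CEM (also -0.02). Under prednisolone AXIN2 ran from -0.19 to 0.058 in the knockout and from -0.14 to 0.16 in CEM (also -0.08). Under dexamethasone in Nalm6 TCF7 ran from -0.32 without untreated replicate 3 to 2.24 without replicate 1 (also -0.04 and -0.30). Between the knockout and Nalm6 GSK3B ran from -0.042 to 0.074 and CTNNB1 from -0.044 to 0.056 (also -0.01). Called values that changed sign were PORCN under dexamethasone in the knockout, -0.029 with the set difference subtracted (of values not called, GSK3A was -0.13 and NKD2 0.69), and GSK3A in CEM against Nalm6, -0.011 with the dexamethasone set alone. Members under 1 CPM, such as WNT10B and WNT3, rest on few counts.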
